A study of Mus musculus with 6 samples.

Results

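The mRNAs of 10 antioxidant enzymes were followed in double positive (DP) thymocytes, immature thymic T cells positive for the coreceptors CD4 and CD8 alike. The genes were *Prdx1*, *Prdx2*, *Prdx3* and *Prdx5* (peroxiredoxins), *Txn1* (thioredoxin) and *Txnrd1* (thioredoxin reductase), *Gpx1* and *Gpx4* (glutathione peroxidases), and *Sod1* and *Sod2* (superoxide dismutases). They were chosen by symbol, and all 10 were found among the 23183 gene symbols of the files. DP thymocytes had been sorted from C57BL/6 mice at 6 weeks of age, and mRNA-seq gave 3 libraries from *Nsrp1* f/f mice (WT) and 3 from *Nsrp1* f/f CD4Cre mice (NSrp70-cKO). Both genotypes carry the floxed *Nsrp1* allele, which encodes the splicing regulator NSrp70, and only the cKO mice carry Cre, driven by the CD4 promoter. The presence of Cre and the deletion therefore cannot be told apart. Nothing in the labels says that the libraries of a genotype came from separate animals, so the p-values measure the spread between these libraries, which may be technical.

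Cells that respire and divide produce superoxide, which superoxide dismutases turn into hydrogen peroxide. Peroxiredoxins then reduce hydrogen peroxide with a reactive cysteine that thioredoxin restores, and thioredoxin reductase recharges thioredoxin with electrons from NADPH. Glutathione peroxidases do the same work with glutathione, and *Gpx4* also reduces lipid peroxides in membranes, which protects T cells from ferroptosis. *Prdx1*, *Prdx2*, *Txn1*, *Txnrd1* and *Sod1* encode mainly cytosolic proteins, *Prdx3* and *Sod2* mitochondrial ones, and *Prdx5* a protein of mitochondria, peroxisomes and cytosol.

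*Txnrd1*, *Gpx1* and *Gpx4* encode selenoproteins, in which a TGA codon in the reading frame is read as selenocysteine in place of a stop. These stretches are shown because the 3 genes share this rare feature but not the direction of their difference between genotypes. The sequences are the coding strands of GENCODE transcripts on GRCm38 (mm10), with the selenocysteine codon in capitals.
*Txnrd1*: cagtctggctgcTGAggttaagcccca
*Gpx1*: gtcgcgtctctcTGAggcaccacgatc
*Gpx4*: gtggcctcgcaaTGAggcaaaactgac
In *Txnrd1* the codon lies in the last of 14 exons, at chr10:82896037-82896039 on the plus strand, and is codon 498 of 499 coding codons. In *Gpx1* it is codon 47 of 201, in exon 1 of 2, at chr9:108339451-108339453 on the plus strand. In *Gpx4* it is codon 73 of 197, in exon 3 of 7, at chr10:80054737-80054739 on the plus strand.

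The measure was the FPKM (fragments per kilobase per mega mapped fragments), which is scaled by length and so allows levels to be set side by side between genes. The mapped depth, estimated from the steps that 1 fragment makes at low FPKM, was 20.7 to 20.8 M fragments (M, mega) in the WT libraries and 13.2 to 20.6 M in the cKO libraries. The estimated fragments behind a value ranged from 786 for *Txnrd1* in cKO 1 to 10177 for *Prdx1* in cKO 2. Summed over all symbols, FPKM came to 521296 to 531517 in the WT libraries and to 701396 to 850548 in cKO. *Nsrp1*, listed under its older symbol *Ccdc55*, had an FPKM of 20.2, 20.7 and 21.1 in WT and of 17.7, 15.8 and 15.002 in cKO, with no overlap. The defining DP genes were abundant in all 6 libraries, *Cd8b1* for instance at an FPKM of 1240 to 1275 in WT and of 1809 to 2603 in cKO. *Xist* lay at an FPKM of 69.8 to 72.0 in WT and of 4.07 to 5.44 in cKO, and the Y-linked *Ddx3y* at 0 in WT and 26.2 to 35.03 in cKO, so that genotype and sex-linked expression cannot be told apart.

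In these libraries, 9 of the 10 enzymes were higher and 1, *Txnrd1*, was lower in NSrp70-cKO DP thymocytes, although *Prdx5* and *Sod2* turned to slightly lower values when every library was scaled to the same FPKM total. The differences were tested with limma on log2(FPKM + 1) over 10326 genes that reached an FPKM of 1 in at least 3 libraries, with p-values adjusted by the Benjamini-Hochberg method. All 10 enzymes passed that filter in both genotypes and had an adjusted p under 0.05. Calls were common in this comparison: 35.8% of all tested genes were called higher and 29.8% lower in cKO. None of the 10 had overlapping groups, where 39.2% of tested genes had every cKO library above every WT library and 33.3% had every cKO library below. The median log2 fold change was 0.76 over the 10 enzymes and 0.04 over all tested genes.

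**Figure D1:**
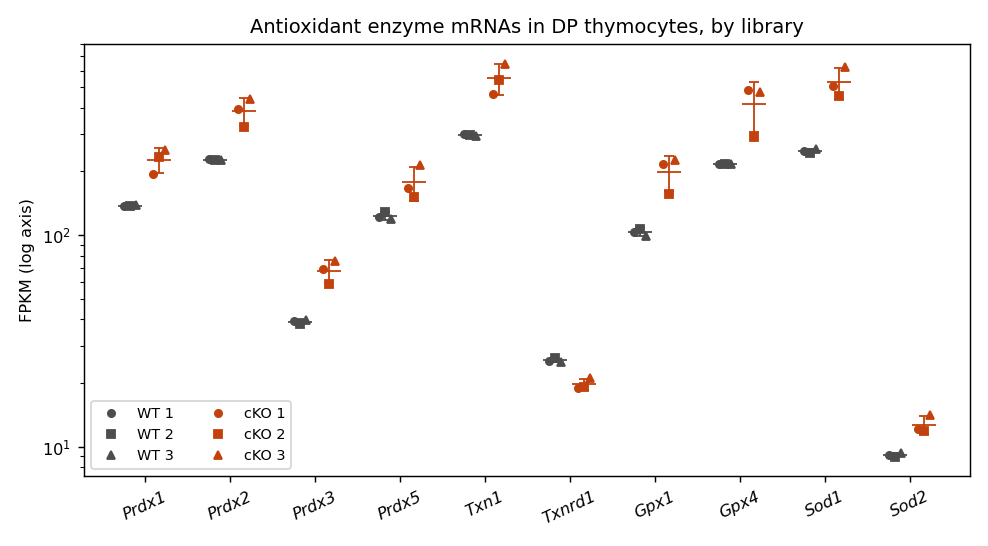
FPKM (log axis) of the 10 enzymes in each library, WT in grey and cKO in orange, with symbols for replicates 1 to 3, and the horizontal tick and error bar giving the mean and SD of 3 libraries. The WT points of a gene nearly coincide, the cKO points lie above them for 9 genes, and *Txnrd1* is the exception.

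Among the peroxiredoxins, *Prdx1*, a cytosolic enzyme, had an FPKM of 138, 137 and 139 in WT 1 to 3 and of 194, 235 and 253 in cKO 1 to 3. *Prdx2*, its close relative and a very abundant protein of red blood cells, had 229, 227 and 227 in WT and 393, 325 and 440 in cKO. For both genes every cKO library stood above every WT library, and cKO 3 was the highest. The order of the other cKO libraries differed between these relatives, since cKO 1 was the lowest for *Prdx1* and cKO 2 the lowest for *Prdx2*. The log2 fold change was 0.71 (SE 0.11, adjusted p = 0.00114 from limma) for *Prdx1* and 0.75 (SE 0.12, adjusted p = 0.00163 from limma) for *Prdx2*.

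*Prdx3*, the mitochondrial peroxiredoxin, was the least abundant of the 4, with an FPKM of 39.2, 38.1 and 39.8 in WT and of 68.9, 59.0 and 75.6 in cKO. *Prdx5*, which differs from the others in its catalytic cysteines, had 122, 129 and 119 in WT and 167, 152 and 215 in cKO. The groups of *Prdx5* came nearest to each other of all 9 genes that were higher, with the lowest cKO value 1.18 times the highest WT value. The log2 fold change of *Prdx3* was 0.77 (SE 0.099, adjusted p = 0.000652 from limma) and that of *Prdx5* 0.51 (SE 0.13, adjusted p = 0.0121 from limma). *Prdx2* shares 177 exonic bases with *Rnaseh2a* and 173 with *Junb*, and *Prdx5* shares 409 with *Trmt112*, all on opposite strands. The study's methods name a directional library kit, but the strand setting of the counting is not given in the sources used here. The reads in these bases may therefore be shared, and the values of *Prdx2* and *Prdx5* are uncertain to that extent. *Junb* went the other way, from an FPKM of 153 to 160 in WT to 45.3 to 79.5 in cKO, while *Rnaseh2a* (14.1 to 15.9 against 18.5 to 28.5) and *Trmt112* (79.7 to 85.3 against 93.2 to 103) were higher in cKO.

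The thioredoxin pair moved apart. *Txn1*, which hands electrons to the peroxiredoxins, had the highest WT level of the 10, with an FPKM of 300, 297 and 295, and reached 467, 542 and 647 in cKO. *Txnrd1*, the reductase that recharges it, had 25.4, 26.2 and 25.1 in WT and 19.0, 19.1 and 21.0 in cKO. Every cKO library was thus above WT for thioredoxin and below WT for its reductase. The log2 fold change was 0.88 (SE 0.13, adjusted p = 0.000986 from limma) for *Txn1* and -0.36 (SE 0.066, adjusted p = 0.00273 from limma) for *Txnrd1*. *Txnrd1* also had the smallest spread among the cKO libraries, a coefficient of variation (CV) of 5.75% against 10.04% to 26.4% for the others.

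Both glutathione peroxidases were higher in cKO. *Gpx1*, the common cytosolic form, had an FPKM of 104, 107 and 99.0 in WT and of 217, 156 and 226 in cKO. *Gpx4* had 217, 218 and 218 in WT and 488, 290 and 475 in cKO. In both genes cKO 2 lay closest to WT, and *Gpx4* had the widest spread among the cKO libraries of the 10 enzymes. The log2 fold change was 0.92 (SE 0.15, adjusted p = 0.00147 from limma) for *Gpx1* and 0.90 (SE 0.20, adjusted p = 0.00616 from limma) for *Gpx4*. Thus the selenoproteins of the 10 were split, the peroxidases being higher and the reductase lower in cKO. An annotated pseudogene copy of *Gpx4*, *Gpx4-ps2*, and one of *Prdx2*, *Prdx2-rs3*, may share reads with their parent genes.

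*Sod1*, the copper and zinc enzyme of the cytosol, showed the largest log2 fold change of the 10 under size factors, with an FPKM of 249, 245 and 254 in WT and of 505, 455 and 625 in cKO. By size, *Prdx3* was larger under quantile normalization, and *Txnrd1* with the same FPKM total. With GC content and length corrected, *Gpx1* (0.86), *Gpx4* (0.86) and *Prdx5* (0.59) were larger than *Sod1* (0.47). *Sod2*, the manganese enzyme of mitochondria, had the lowest level in either genotype, with 9.14, 8.98 and 9.36 in WT and 12.2, 11.8 and 14.2 in cKO. All cKO values were above all WT values for *Sod1* and *Sod2*. The log2 fold change of *Sod1* was 1.06 (SE 0.13, adjusted p = 0.000509 from limma) and that of *Sod2* 0.43 (SE 0.083, adjusted p = 0.00352 from limma).

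The WT libraries resembled one another closely. For 8 of the 10 enzymes the CV among WT libraries was smaller than the counting error expected from the estimated fragments, for *Gpx4* 0.123% against 1.71%. The exceptions were *Prdx5* (4.10% against 1.92%) and *Gpx1* (4.11% against 2.31%). In cKO, none of the 10 had a CV under its counting error. When the WT libraries were averaged and counted as 1 sample, *Prdx3* (adjusted p = 0.0488 from limma) and *Sod1* (adjusted p = 0.0487) were still called, as were 7.21% of all tested genes higher and 8.73% lower. The other 8 enzymes then had an adjusted p of 0.059 to 0.176, with 0.147 for *Txnrd1*.

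The size of the differences depended on how the libraries were scaled. Giving all libraries an equal FPKM total shifted the median log2 fold change over tested genes from 0.04 to -0.45, and the calls from 3693 higher and 3073 lower to 902 higher (8.74%) and 6181 lower (59.9%). On that scale *Prdx2*, *Prdx3*, *Txn1*, *Gpx1* and *Sod1* were called higher, *Txnrd1* was called lower at -0.90 on the log2 scale (limma, adjusted p = 9.62e-05), and the other 4 were not called. Of these, *Prdx1* was at 0.15 (adjusted p = 0.271) and *Gpx4* at 0.34 (adjusted p = 0.0613), whereas *Prdx5*, at -0.05 (adjusted p = 0.653), and *Sod2*, at -0.09 (adjusted p = 0.389), had changed sign. Relative to the median of all tested genes, 9 of the 10 lay above it and *Txnrd1* below it on either scale. With the WT libraries counted as 1 sample as well, only *Txnrd1* was called (adjusted p = 0.0183), with 1.24% of all genes called higher and 29.5% lower.

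Quantile normalization left 6 enzymes called higher and *Txnrd1* called lower, against 33.3% and 29.9% of all tested genes. *Prdx1* (adjusted p = 0.0992), *Prdx5* (adjusted p = 0.376) and *Txn1* (adjusted p = 0.0554) were no longer called. Under every scaling with 3 WT samples, *Txnrd1* was called lower and *Prdx2*, *Prdx3*, *Gpx1* and *Sod1* were called higher.

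**Figure D2:**
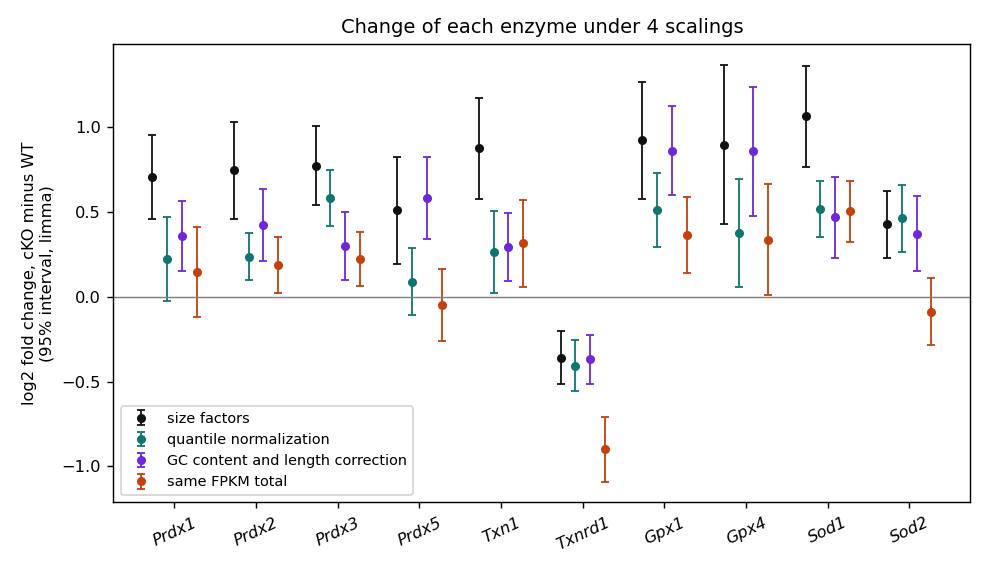
log2 fold change (cKO minus WT) of each enzyme with its 95% interval from limma under size factors, quantile normalization, the correction for GC content and length, and scaling to the same FPKM total. *Txnrd1* stays below 0 in all 4, *Sod1* stays above 0 in all 4, and *Prdx5* and *Sod2* lie just under 0 with the same FPKM total.

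Most of these transcripts are short. The median length was 1370 nucleotides over the 10 enzymes and 2839 over the 10267 tested genes with a length, and 7 of the 10 fell in the shortest of 5 equal bins of genes, of 126 to 1591 nucleotides. That bin had a median log2 fold change of 0.41, against -0.12 in the longest bin, and across genes the Spearman correlation of length with the log2 fold change was -0.30, a description over genes of the same 6 libraries. The differences were computed again after a spline correction for GC content and length in each library. After it, the same 9 enzymes were called higher and *Txnrd1* lower, against 30.0% and 26.8% of all genes. The log2 fold change fell to 0.47 for *Sod1*, 0.29 for *Txn1*, 0.30 for *Prdx3*, 0.36 for *Prdx1* and 0.42 for *Prdx2*, whereas it was 0.86 for *Gpx1* and for *Gpx4*, 0.59 for *Prdx5*, 0.37 for *Sod2* and -0.37 for *Txnrd1*.

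**Figure D3:**
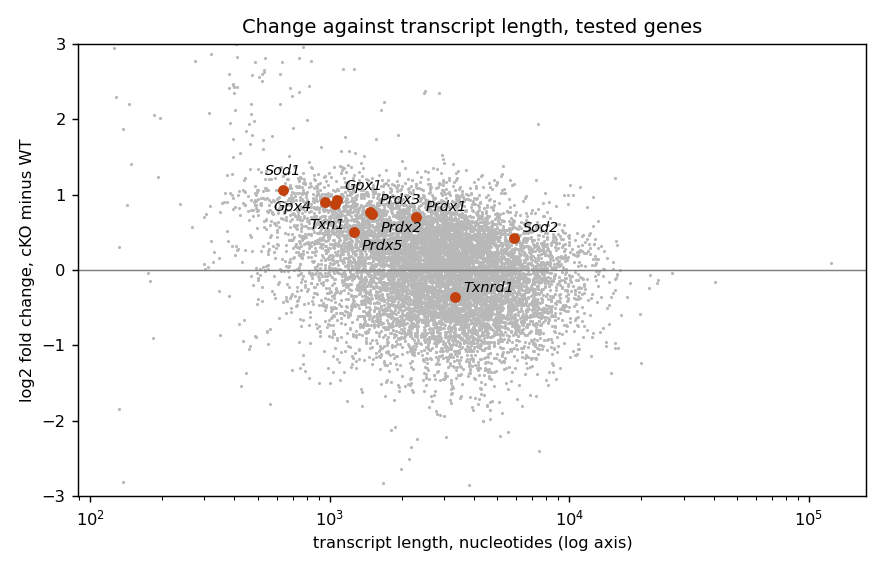
log2 fold change (cKO minus WT) against transcript length in nucleotides (log axis), with tested genes in grey and the 10 enzymes in orange (13 genes lie beyond the plotted range). *Sod1*, *Gpx4*, *Txn1* and *Gpx1* are among the short transcripts on the left, where the grey cloud sits above 0, and *Sod2* and *Txnrd1* are longer.

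Ratios within a library do not depend on a size factor, but they do depend on the correction for GC content and length. The *Txn1*/*Txnrd1* ratio was 11.8, 11.4 and 11.7 in WT and 24.5, 28.4 and 30.7 in cKO, with no overlap. *Sod1* exceeded *Sod2* 27.3, 27.3 and 27.2 times in WT and 41.5, 38.5 and 44.1 times in cKO. The *Prdx3*/*Prdx5* ratio rested on a narrower gap, with 0.321, 0.296 and 0.336 in WT and 0.414, 0.389 and 0.351 in cKO. In log2 units these ratios differed between cKO and WT by 1.25, 0.60 and 0.28, each with p = 0.1 from an exact two-sided permutation test, the smallest p that 3 libraries against 3 allow, and 0.167 after adjustment over the 5 ratios. From the log2 fold changes after correcting for GC content and length, the differences were 0.66 for *Txn1*/*Txnrd1* and 0.098 for *Sod1*/*Sod2*, and that of *Prdx3*/*Prdx5* was reversed to -0.28.

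The ratios within the cytosolic peroxiredoxins and within the glutathione peroxidases overlapped between genotypes. *Prdx1*/*Prdx2* was 0.601, 0.603 and 0.610 in WT and 0.492, 0.723 and 0.574 in cKO, a log2 difference of -0.04 (exact two-sided permutation p = 0.7, adjusted 0.875). *Gpx1*/*Gpx4* was 0.477, 0.494 and 0.454 in WT and 0.444, 0.538 and 0.476 in cKO, a log2 difference of 0.03 (exact two-sided permutation p = 0.9, adjusted 0.9). The cKO libraries spread to either side of WT in both ratios.

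**Figure D4:**
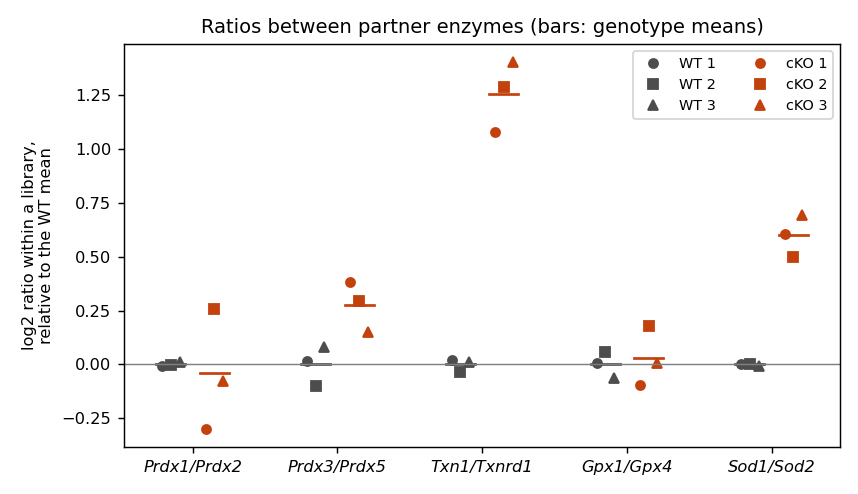
log2 ratio of 5 pairs of enzymes within each library, relative to the WT mean, with WT in grey and cKO in orange, symbols for replicates and bars for genotype means. The cKO points of *Txn1*/*Txnrd1*, *Sod1*/*Sod2* and *Prdx3*/*Prdx5* lie above all WT points, and those of *Prdx1*/*Prdx2* and *Gpx1*/*Gpx4* straddle them. The ratios are of FPKM without the correction for GC content and length, which reverses *Prdx3*/*Prdx5*.

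By mean FPKM, the order in WT was *Txn1* (297), *Sod1* (250), *Prdx2* (228), *Gpx4* (218), *Prdx1* (138), *Prdx5* (123), *Gpx1* (103), *Prdx3* (39.0), *Txnrd1* (25.6) and *Sod2* (9.16), and the ranges of neighbours did not overlap. In cKO the order changed at 2 places, *Gpx4* (418) standing above *Prdx2* (386) and *Gpx1* (200) above *Prdx5* (178). The neighbours from *Txn1* (552) through *Sod1* (528) and *Gpx4* to *Prdx2* overlapped in range, as did *Prdx1* (227), *Gpx1* and *Prdx5*. Together the 10 mRNAs summed to an FPKM of 1425 to 1434 in WT and of 2246 to 2991 in cKO. As a percentage of the library's FPKM total, which no size factor changes, they made up 0.269% to 0.275% in WT and 0.320% to 0.352% in cKO. Within that sum, *Sod1* went from 17.5% ± 0.36 to 20.4% ± 0.48 and *Txnrd1* from 1.79% ± 0.033 to 0.769% ± 0.075 (mean ± SD, n = 3). As a share of the FPKM total, 5 enzymes had every cKO library above WT and 2, *Txnrd1* and *Sod2*, every cKO library below, against 11.2% and 63.5% of all tested genes.

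The wider redox network was followed in 7 lists of 81 genes, of which 70 were tested, 34 (48.6%) being called higher and 9 (12.9%) lower in cKO, against the 35.8% and 29.8% of all tested genes. With the same FPKM total, 8 (11.4%) were called higher and 34 (48.6%) lower, against 8.74% and 59.9%. After correcting for GC content and length, 27 (38.6%) were called higher and 14 (20%) lower, against 30.0% and 26.8%. The directions in the lists therefore depend on these choices. In the list of FOXO factors and sestrins no gene was called higher under any scaling or the correction, but 2 genes changed sign. *Foxo3* went from -0.46 to 0.074 after the correction, and *Sesn3* from 0.061 to -0.45 with the same FPKM total. Both were named after their values were seen, and the other genes of that list stayed below 0. Over all 7 lists, most calls were lost when the WT libraries were treated as 1 sample. In the remaining thioredoxin and peroxiredoxin system, 8 of 13 tested genes were called higher and none lower, with a median log2 fold change of 0.49. With the same FPKM total, 1 of them was called higher and 5 lower (median -0.059). After correcting for GC content and length, 6 were called higher and 2 lower. *Prdx4*, the peroxiredoxin of the endoplasmic reticulum, had an FPKM of 16.8, 15.6 and 18.7 in WT and of 50.8, 30.8 and 50.0 in cKO. Its log2 fold change was 1.28 (SE 0.19, adjusted p = 0.00124 from limma), and was 0.74 with the same FPKM total. *Txndc12*, a thioredoxin-like protein of the same compartment, had a log2 fold change of 0.65 (adjusted p = 0.000296) that was 0.11 with the same FPKM total (adjusted p = 0.312). *Srxn1*, the sulfiredoxin that repairs overoxidized peroxiredoxins and which was picked after its values were seen, had an FPKM of at most 0.037 in any library.

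Of the genes of glutathione synthesis and use, 7 of 14 tested (50%) were called higher and 1 (7.14%) lower (median log2 fold change 0.40). Among all tested genes the shares were 35.8% and 29.8%. With the same FPKM total, 0 were called higher and 6 lower, against 8.74% and 59.9% of all tested genes. After correcting for GC content and length, 1 was called higher and 3 lower, against 30.0% and 26.8%. *Gss*, glutathione synthetase, rose from 10.3 to 20.8 ± 6.1 in mean FPKM (SD over 3 libraries, also for the genes that follow, log2 fold change 0.90, adjusted p = 0.00753 from limma), and the microsomal transferase *Mgst3* from 25.4 to 43.0 ± 3.3 (0.74, adjusted p = 0.000559). With the same FPKM total neither was called, at 0.37 (adjusted p = 0.0696) for *Gss* and 0.19 (adjusted p = 0.184) for *Mgst3*, and *Mgst3* was also not called after correcting for GC content and length (0.27, adjusted p = 0.055). *Slc3a2*, the heavy chain of the cystine transporter, fell from 35.9 to 27.2 ± 0.72 (log2 fold change -0.39, adjusted p = 0.00104). Among 6 tested enzymes that deal with superoxide, peroxide and oxidized methionine, 5 (83.3%) were called higher and none lower (median 0.37), against 35.8% and 29.8% of all tested genes. With the same FPKM total, 1 was called higher and 1 lower (median -0.17), against 8.74% and 59.9%. *Park7*, a peroxide-sensing protein, went from a mean FPKM of 165 to 378 ± 95 (log2 fold change 1.16, adjusted p = 0.00167), and the methionine sulfoxide reductase *Msrb1*, also a selenoprotein, from 51.6 to 75.5 ± 5.2 (0.54, adjusted p = 0.000904). *Msrb1* turned to -0.015 with the same FPKM total (adjusted p = 0.898).

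NADPH is the electron source of both the thioredoxin and the glutathione system. Of 12 tested genes of its supply, 8 (66.7%) were called higher and none lower (median log2 fold change 0.70). Among all tested genes, 35.8% were called higher and 29.8% lower. With the same FPKM total, 4 were called higher and 4 lower (median 0.17), against 8.74% and 59.9% of all tested genes. After correcting for GC content and length, 9 genes of the list were called higher and 1 lower. All the named ones belong to the pentose phosphate pathway. *Pgls* went from an FPKM of 105 to 109 in WT to 338, 148 and 266 in cKO (log2 fold change 1.14, adjusted p = 0.00922 from limma), and *Taldo1* from 142 to 143 in WT to 280, 233 and 301 in cKO (0.92, adjusted p = 0.000483). Both were again least shifted in cKO 2.

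Of the NRF2 regulators and targets, 4 of 12 tested genes (33.3%) were called higher and 4 lower (median 0.11), shares near the 35.8% and 29.8% of all tested genes. With the same FPKM total, 2 were called higher and 7 lower (median -0.42), against 8.74% and 59.9% of all tested genes. Under quantile normalization 4 were called higher and 6 lower, against 33.3% and 29.9%. *Nfe2l2*, which encodes NRF2, the activator of many antioxidant genes, had an FPKM of 17.3, 17.2 and 18.4 in WT and of 31.0, 26.6 and 33.6 in cKO (log2 fold change 0.75, adjusted p = 0.000677 from limma). Its target *Blvrb*, biliverdin reductase, went from a mean of 5.17 to 10.4 ± 1.6 (0.88, adjusted p = 0.00103). The small Maf partners of NRF2 were lower, *Mafk* at 35.7, 33.6 and 35.1 in WT and 16.5, 21.0 and 16.7 in cKO (-0.92, adjusted p = 0.000353) and *Mafg* at a mean of 2.87 against 1.34 ± 0.32 (-0.73, adjusted p = 0.00162). With the same FPKM total, *Nfe2l2* was at 0.21 (adjusted p = 0.0383 from limma) and *Blvrb* at 0.39 (adjusted p = 0.0149). On that scale *Mafk* was at -1.46 (adjusted p = 0.000146) and *Mafg* at -1.11 (adjusted p = 0.000209). *Hmox1* (FPKM 1.34 to 1.75 in WT, 1.45 to 2.31 in cKO) and *Nqo1* (at most 0.214 in any library), classical NRF2 targets, were low in both genotypes. So was *Osgin1* (at most 0.218). Other genes of this list were abundant, namely *Ftl1* (896 to 917 in WT, 984 to 1130 in cKO), *Fth1* (492 to 501, 432 to 525) and *Sqstm1* (92.3 to 95.7, 103 to 133). *Sqstm1* was called higher (0.37, adjusted p = 0.02 from limma), but was at -0.18 with the same FPKM total (adjusted p = 0.052). All of these were picked after their values were seen.

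Selenoprotein synthesis had 2 of 7 genes (28.6%) called higher and none lower (median 0.09), against 35.8% and 29.8% of all tested genes. The 2 were *Sephs1*, of the selenophosphate synthetase family (log2 fold change 0.52, adjusted p = 0.000873 from limma), and *Trnau1ap*, which binds the selenocysteine tRNA (0.50, adjusted p = 0.0014). With the same FPKM total both turned sign, to -0.012 (adjusted p = 0.905) and -0.035 (adjusted p = 0.755). On that scale 0 genes of the list were called higher and 5 lower (median -0.41), against 8.74% and 59.9% of all tested genes. After correcting for GC content and length, 3 were called higher and 1 lower, against 30.0% and 26.8%. Under size factors 1 gene of this list was lower at an unadjusted p under 0.05 from limma, the selenophosphate synthetase *Sephs2*. Itself a selenoprotein and picked after its values were seen, it had an FPKM of 28.7, 28.1 and 28.6 in WT and of 12.9, 25.1 and 22.0 in cKO. In the other lists, each count of none was also 0 at that unadjusted p. Of the FOXO factors and sestrins, 4 of 6 (66.7%) were called lower and none higher (median -0.53). Among all tested genes, 29.8% were called lower and 35.8% higher. With the same FPKM total the number of lower calls in this list was 6 (median -0.96), against 59.9% of all tested genes. The spline correction left 3 such calls, against 26.8%. *Foxo4*, a forkhead transcription factor, had an FPKM of 33.3, 32.5 and 33.5 in WT and of 18.2, 23.9 and 20.2 in cKO (log2 fold change -0.66, adjusted p = 0.00106 from limma), and the stress-induced *Sesn2* a mean of 2.17 in WT and 1.09 ± 0.22 in cKO (-0.61, adjusted p = 0.00237). After correcting for GC content and length *Sesn2* was at -0.067 and no longer called (adjusted p = 0.587), and *Foxo4* was at -0.35 (adjusted p = 0.0223).

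**Figure D5:**
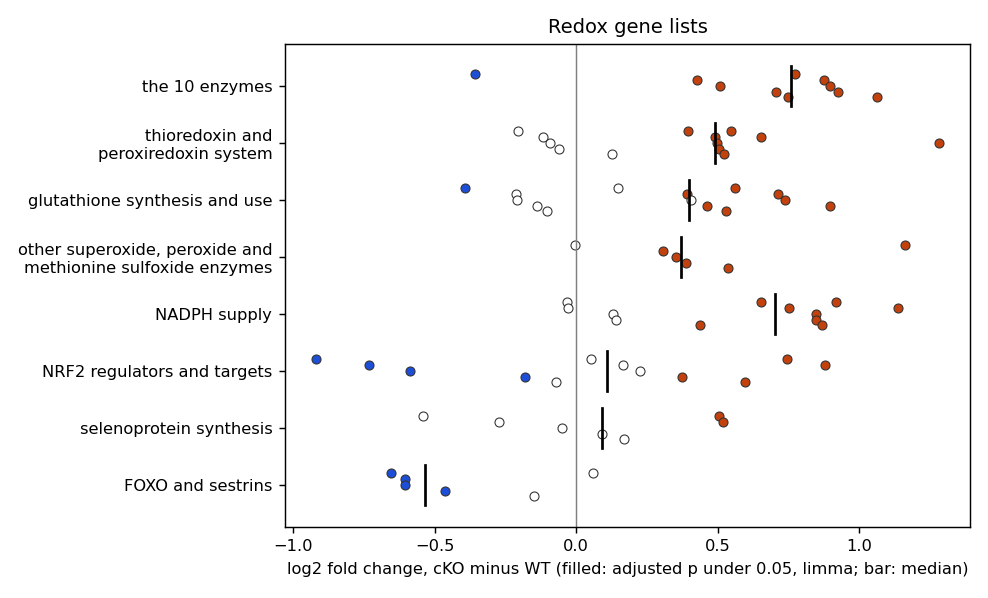
log2 fold change (cKO minus WT) of the 10 enzymes and of the tested genes of 7 redox lists, with filled points for an adjusted p under 0.05 from limma (orange higher, blue lower), open points for the rest and a bar for the median of each list. The NADPH supply list has a median of 0.70, near the 0.76 of the enzymes, and the FOXO and sestrin list one of -0.53.

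Promoter sequence was examined for the core of the NRF2 binding element, written TGACNNNGC and searched on both strands, because *Nfe2l2* differed between genotypes. It was found in 3 of the 15 RefSeq promoters (250 bases before to 50 after a start site, GRCm38.p6) that the 10 enzymes have, and in 12.4% of all 32851 promoters. The 80-base stretches around these matches are shown on the plus strand with the match in capitals.
*Prdx1*: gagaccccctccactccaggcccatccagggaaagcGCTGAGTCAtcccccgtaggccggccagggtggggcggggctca
*Txnrd1*: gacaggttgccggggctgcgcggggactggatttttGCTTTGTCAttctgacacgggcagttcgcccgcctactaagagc
*Sod1*: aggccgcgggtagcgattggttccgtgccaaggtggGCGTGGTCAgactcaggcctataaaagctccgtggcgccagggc
They lie at chr4:116685430-116685509, chr10:82859078-82859157 and chr16:90220670-90220749, and the matches begin at -133, -92 and -56 from their start sites. The match in *Prdx1* also holds the letters of the AP-1 motif TGANTCA, which is present in 7.81% of all promoters, and the others do not. Of the genes with a match, *Prdx1* and *Sod1* were higher and *Txnrd1* lower in cKO. *Txnrd1* also has RefSeq promoters without a match, and an FPKM per gene does not tell which promoter is used. A match of these letters is a description and not a binding site.

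Outside the enzymes and their lists, the genes whose profile over the 6 libraries lay nearest to the mean profile of the 10 enzymes were *Prps2*, *Adh5*, *Sec23b*, *Anp32a* and *Pdha1*, with Euclidean distances of 0.055 to 0.080 in centred log2(FPKM + 1) among 6280 genes at a mean WT FPKM of 10 or more. Of the enzymes themselves, *Prdx2* (0.14) lay nearest to that mean and *Txnrd1* (1.26) farthest. *Prps2*, which makes the ribose donor for nucleotide synthesis, had an FPKM of 96.4, 96.6 and 98.2 in WT and of 153, 141 and 176 in cKO.

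Some markers of other cells and states also differed between the genotypes. All 8 genes of the cycling list were called higher, their summed FPKM being 955 to 967 in WT and 1992 to 2234 in cKO. Of the 5 markers of mature single-positive thymocytes, 4 were called lower, *Ccr7* for instance from an FPKM of 15.1 to 16.2 in WT to 1.16 to 2.50 in cKO. The erythroid markers summed to an FPKM of 0.588 to 1.06 in WT and 3.49 to 10.9 in cKO, nearly all from *Hba-a1*, with *Slc4a1* at 0 in all 6 libraries. The macrophage markers summed to 6.45 to 8.54 in WT and 5.21 to 7.55 in cKO and the dendritic ones to 15.8 to 17.2 and 7.93 to 10.7, whereas the B cell markers summed to at most 1.19 in any library. Those of thymic epithelium reached at most 3.98, with *Krt5* and *Foxn1* at 0, and those of double-negative thymocytes summed to 11.8 to 13.03 in WT and 8.13 to 10.5 in cKO. In bulk libraries such as these, fewer cells of a type and less RNA per cell cannot be told apart, and the part of these markers in the enzyme differences was not tested.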

How the data were processed

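The authors made poly(A) libraries of sorted DP thymocytes with a directional kit, and deposited FPKM values from Cufflinks, 1 per gene symbol and library, after trimming and TopHat alignment to mm10 (3 WT, 3 cKO). Tool versions, annotation and the strand setting of the counting are not given in the sources used here. Depth was estimated at 2608 single-transcript genes with an assumed fragment length of 200. FPKM values were divided by median-of-ratios size factors (1.00 to 1.01), and log2(FPKM + 1) was fitted with limma 3.58.1 in R 4.3.3 (trend) over 10326 genes that reached an FPKM of 1 in 3 libraries, at an adjusted p of 0.05. The pseudocount of 1 understates changes of low genes. The study's DESeq2 test needs counts and was not run. Splines for GC content and length had 5 degrees of freedom. Symbols were matched to GENCODE (22148) or RefSeq synonyms (666). The fit was tested on simulated data. Python 3.11.15 with scipy 1.17.1 was used for exact tests and matplotlib 3.10.9 for figures.

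The enzymes and lists were chosen with earlier results of these data known. Named genes were the 10 enzymes, *Nsrp1*, at most the 2 called genes of each list with the largest change in each direction, and the 5 nearest profiles, with exceptions stated beside them. Alternatives covered pseudocount, filter, scaling, GC content and length, spread, replicate block, WT libraries counted as 1 sample and each library left out, and the same FPKM total with the WT libraries counted as 1 sample, and the correction of the ratios for GC content and length, were added after seeing the data. The value of 1 marker gene is not reported here.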

Additional observations from a re-analysis of the deposited data

How the results depend on the processing

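All 10 enzymes kept their call with a pseudocount of 0.1 or 5, with either other filter, without size factors, with the spread estimated per genotype, without a variance trend, with the correction for GC content and length and with each library left out. Counting the WT libraries as 1 sample left 2 enzymes called higher and 0 lower by limma (7 and 0 at an unadjusted p under 0.05), 8 genes of the redox lists and 1645 genes in all, against 9, 1, 43 and 6766. With the same FPKM total, 5 enzymes were called higher, and *Prdx5* (-0.048) and *Sod2* (-0.086) changed sign. Both choices together, added after seeing the data, gave 0 enzymes higher by limma (1 at an unadjusted p under 0.05), 10 genes of the lists and 3179 genes in all, with *Prdx5* again at -0.048 and *Sod2* at -0.086. Over all tested genes the same FPKM total gave 902 higher and 6181 lower, against 3693 and 3073. Leaving out each library moved the log2 difference of the *Prdx1*/*Prdx2* ratio between -0.19 and 0.092 and that of *Gpx1*/*Gpx4* between -0.045 and 0.092. The first changed sign without cKO 1, and the second without cKO 2 and without WT 3 (-0.0019). After correcting for GC content and length, added for the ratios after seeing the data, the *Prdx3*/*Prdx5* difference was -0.28 in place of 0.28. A pseudocount of 1 kept the sign of all 5 ratios.

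Same-numbered libraries did not deviate together (correlations of -0.02, 0.04 and 0.03 for numbers 1, 2 and 3). With a replicate block, 9 enzymes were called higher and 1 lower, and 6467 genes in all. Counting error behind an enzyme's value was at most 3.13% (mean over a genotype's libraries), so depth set the precision less than the spread between cKO libraries did.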
